A study of Mus musculus with 118 samples.

Results

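The clustered protocadherin genes encode cell adhesion proteins of the cadherin family and lie in 3 neighbouring clusters, alpha, beta and gamma, on mouse chromosome 18. The members were taken as the genes there whose symbols begin with Pcdha, Pcdhb or Pcdhg, which gave 58 of the 26180 genes with a curated RefSeq transcript: 14 alpha, 22 beta and 22 gamma members. One of them, Pcdhgb8, is annotated as a transcribed pseudogene. The locus was selected on the peak lists themselves, because SUZ12 peaks that no RING1B peak overlaps gather there, so counts of peaks over members are given as a description, with no test.

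Each member has its own promoter and a long first exon, the variable exon, which encodes the extracellular part of the protein. In the alpha and gamma clusters every variable exon is spliced to the same 3 constant exons at the end of the cluster, whereas each beta gene is a single exon. In neurons the promoters are chosen in part at random, so that single cells carry different combinations of these adhesion proteins on their surface. The last members of the alpha and gamma clusters, called C-type, are set apart in sequence and are used more uniformly between neurons. The Polycomb system keeps many developmental and neuronal genes repressed in embryonic stem cells (ESCs). It consists of PRC1 and PRC2. PRC1 is a ubiquitin ligase for histone H2A, with a catalytic core made of RING1B or RING1A together with a PCGF protein. PRC2 is a methyltransferase for histone H3 of which SUZ12 is a core subunit. PCGF2 is a subunit of canonical PRC1, the form that recognises the mark left by PRC2.

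The peaks come from calibrated ChIP-seq, in which human HEK293T cells are added to mouse ESCs as an internal standard, in cells that received no tamoxifen (0 hr). PRC1CPM cells (strain E14, clone 41) gave 3 samples for each of the 3 factors. They carry Ring1aI50A/D53K and, as the floxed allele that tamoxifen would switch to the inactive form, Ring1b(WT->I53A/D56K)fl/fl, together with the recombinase Rosa26::ERT2-Cre. SUZ12 was also profiled in 3 samples of PRC1CKO cells (E14, clone B9), which lack Ring1a (Ring1a-/-) and combine Ring1bfl/fl with the same recombinase. Both lines therefore carry an altered Ring1a before treatment, and each line is 1 clone. The series holds 118 samples, but the values used here are 1 list of peak positions for each of the 3 factors. A list combines its samples and gives no height, p-value or read depth, so no error between replicates stands beside any value below. The lists were also built by different rules, and RING1B peaks had to lose signal on tamoxifen in PRC1CKO cells to be kept. Differences between the lists in number and width of peaks can come from these rules, and their part was not tested. The sources used here do not say which line's boundaries the RING1B and SUZ12 peaks kept in both lines carry, or whether these were joined or intersected, so widths and ranks by width are those of the lists as given.

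A promoter window is the annotated transcription start site (TSS) plus or minus 2500 bp, and a member has a peak if at least 1 bp of the window lies under one. All 22 gamma members had a RING1B peak, against 12 of 14 alpha and 13 of 22 beta members, where 53.2% of all genes did. A SUZ12 peak was found at 22 gamma, 11 alpha and 17 beta members, beside 24.8% of all genes. The clusters lay furthest apart for PCGF2, with a peak at 17 gamma and 11 alpha members but at only 4 of 22 beta members, beside 13.5% of all genes. Peaks of all 3 lists were present at 11 alpha, 4 beta and 17 gamma members, beside 13.4% of all genes. The beta members thus had SUZ12 in this window about as often as the alpha members, 77.3% against 78.6%. Their share with PCGF2, 18.2% against 78.6%, was near that of all genes. The likeness for SUZ12 depended on the window. Within 1000 bp of the TSS, 12 of 22 beta and 11 of 14 alpha members had SUZ12. The members share peaks and, for 18 of the 58, overlapping windows, so these counts are not counts of independent sites.

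**Figure D1:**
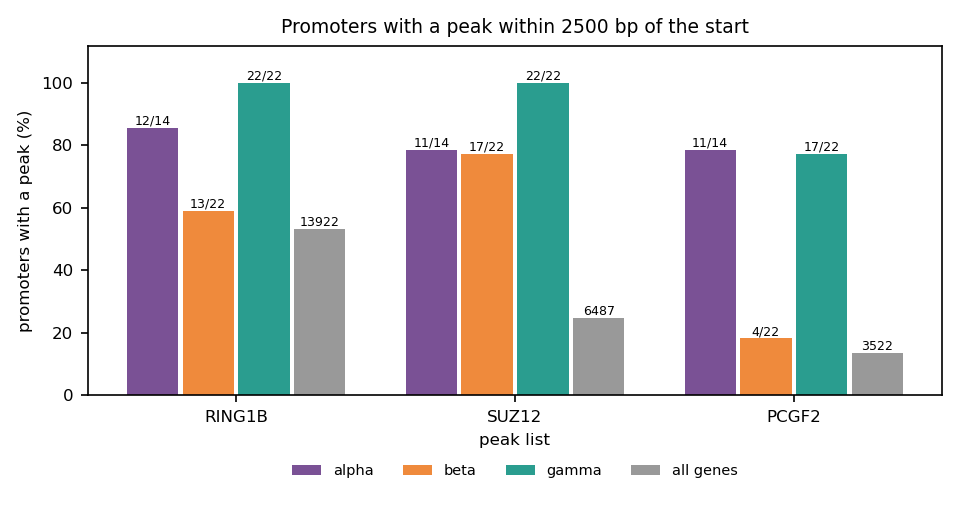
Share of promoters (y axis, %) with a peak of each list (x axis) in the alpha, beta and gamma clusters and over all genes; the labels give the number of members with a peak out of the cluster's members, or the number of genes for the grey bars. The gamma bars reach 100% for RING1B and SUZ12, and the beta bar for PCGF2 stands at 18.2%, beside 13.5% of all genes.

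All 12 other protocadherin genes, which lie outside the clusters and have names such as Pcdh10 and Pcdh19, were looked up for comparison. Of these, 10 had peaks of all 3 lists and 2, Pcdh12 and Pcdh15, had none. The 39 Hox genes, textbook Polycomb targets, all had peaks of all 3 lists. A promoter with SUZ12 and no PCGF2 was therefore absent from both sets, whereas 13 of the 17 beta members with SUZ12 and 5 of the 22 gamma members had no PCGF2 peak. Over all genes with SUZ12, 54.1% also had PCGF2, and among members with SUZ12 the shares were 23.5% in the beta, 77.3% in the gamma and 100% in the alpha cluster.

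The alpha cluster spans 221 kb from 2500 bp before Pcdha1 to 2500 bp past the variable exon of Pcdhac2, and peaks cover 23.5% (RING1B), 29.9% (SUZ12) and 16.2% (PCGF2) of it. The peaks fell into 2 blocks of alpha members with a gap between them, and then the isolated C-type members. Pcdha1 to Pcdha5 form the first block, with all 3 factors at each. Pcdha9 to Pcdha12 form the second, again with all 3 factors at each. Between the blocks, Pcdha6 had only a RING1B peak of 741 bp that reached from 50 bp before its TSS to 690 bp past it, and Pcdha7 and Pcdha8 had no peak of any list. From the TSS of Pcdha7 the nearest SUZ12 peak was 9258 bp away, and from that of Pcdha8 it was 3531 bp away.

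**Figure D2:**
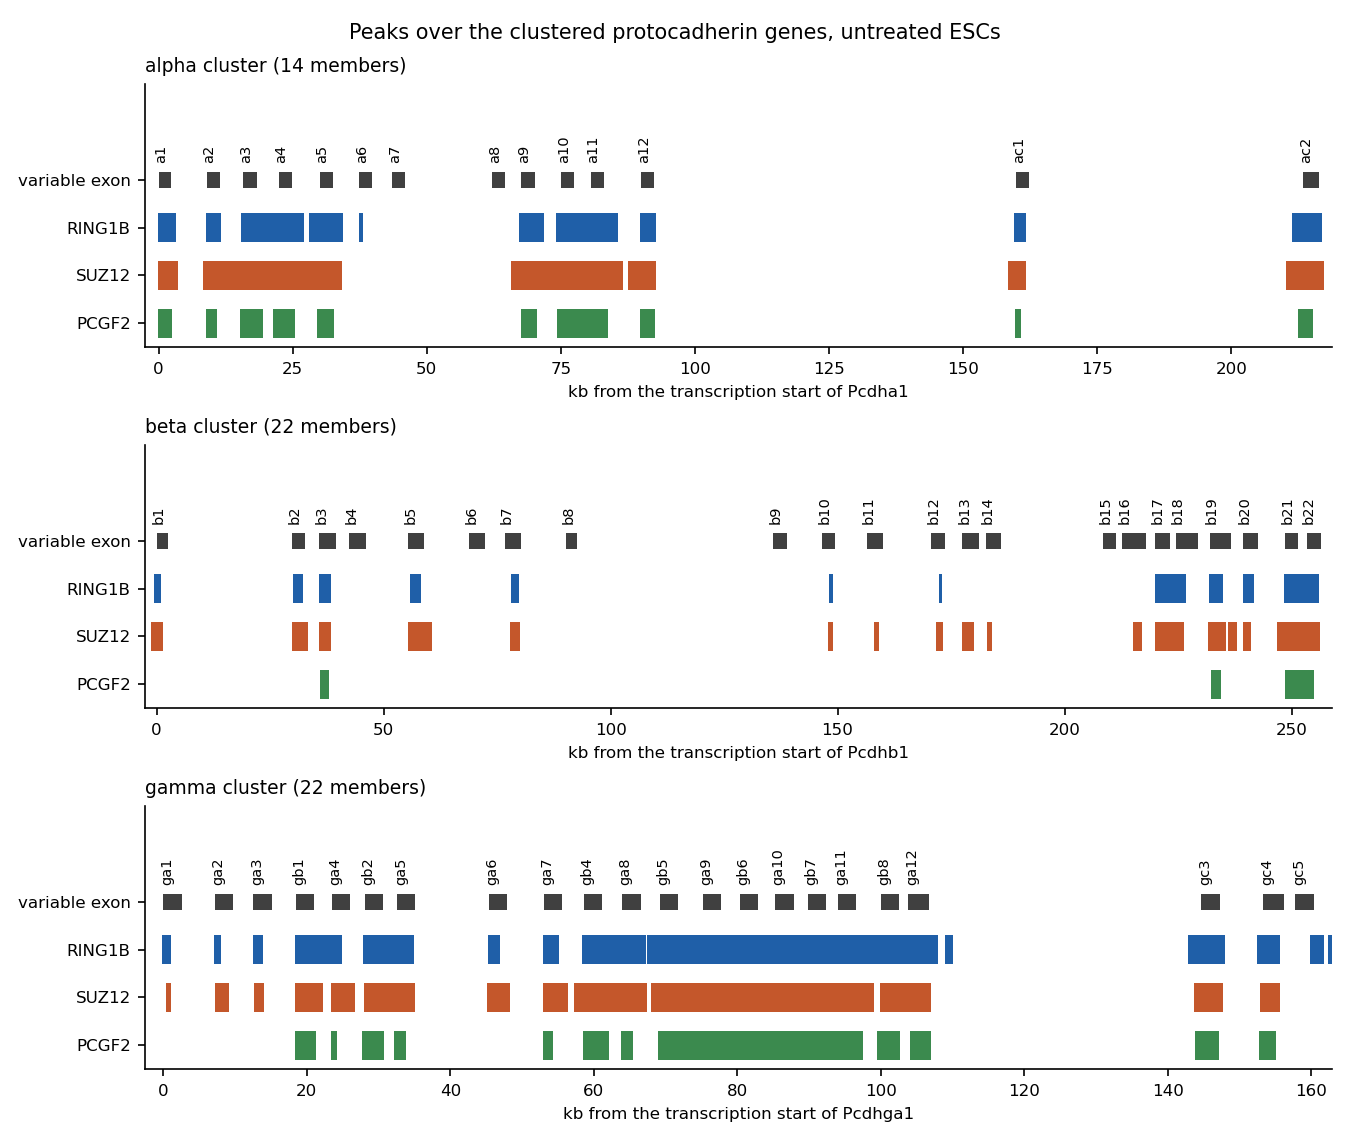
Map of the 3 clusters, each drawn in kb from the TSS of its first member (x axis), with the variable exons in grey (labels without the letters Pcdh) and the RING1B, SUZ12 and PCGF2 peaks in rows below; peaks are clipped at the ends of each span. Peaks join across neighbouring exons at Pcdha2 to Pcdha5, at Pcdha9 to Pcdha11 and at Pcdhgb5 to Pcdhga12, and the beta row for PCGF2 holds 3 peaks.

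Within the alpha blocks the SUZ12 peaks were joined where the others were broken up. A single SUZ12 peak of 25968 bp, chr18:36938586-36964553, ran over Pcdha2, Pcdha3, Pcdha4 and Pcdha5, and only 44 of the 7438 SUZ12 peaks were wider. The same 4 members held 3 RING1B peaks, of 2851, 11725 and 6343 bp, and 4 separate PCGF2 peaks of 2171 to 4231 bp, each sitting on its own variable exon. In the second block a SUZ12 peak of 20761 bp covered Pcdha9, Pcdha10 and Pcdha11, where RING1B had a peak of 4607 bp at Pcdha9 and one of 11534 bp over Pcdha10 and Pcdha11. The widest PCGF2 peak of the alpha cluster, 9456 bp, lay over the same Pcdha10 and Pcdha11. In all, the alpha cluster held 6 SUZ12 peaks against 10 RING1B and 10 PCGF2 peaks. Of the RING1B bases there, 98.2% were also under SUZ12, and 77.1% of the SUZ12 bases were under RING1B.

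Pcdha1, the first alpha member, had peaks of similar extent in the 3 lists, covering 2710 bp (RING1B), 2669 bp (SUZ12) and 2721 bp (PCGF2) of its 5001 bp window. All 3 began within 220 bp before the TSS and covered the whole variable exon. The C-type member Pcdhac1, which stands 69906 bp past Pcdha12, had the narrowest PCGF2 peak of the alpha cluster, 1080 bp, inside a RING1B peak of 2234 bp and a SUZ12 peak of 3357 bp. Pcdhac2, the last alpha member, had wider peaks, of 5540 bp (RING1B), 7104 bp (SUZ12) and 2868 bp (PCGF2), and each of them began more than 1000 bp before the TSS. The 3 constant exons of the alpha cluster, which every alpha member shares, had no peak of any list over them.

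The beta cluster spans 261 kb and was the most sparsely covered, with 12.4% of its bases under RING1B, 19% under SUZ12 and 4.04% under PCGF2. It had more SUZ12 peaks than the alpha cluster, 16 against 6, but they were shorter. The median SUZ12 width was 2412 bp over the 16 peaks, against 6188 bp for the alpha and 3476 bp for the 13 gamma peaks. Over the whole SUZ12 list the median was 2666 bp, so the beta median was near that of the list. Peaks were denser at the 3′ end of the beta cluster. All 6 members from Pcdhb17 to Pcdhb22 had RING1B and SUZ12, and RING1B covered 2510 to 5001 bp of their windows. Among the 16 members from Pcdhb1 to Pcdhb16, 7 had RING1B, covering at most 2493 bp of a window, and 11 had SUZ12, covering at most 2678 bp. The middle of the cluster was the sparsest part for RING1B. RING1B lay at 5 of the 7 members from Pcdhb1 to Pcdhb7 and at 2 of the 9 from Pcdhb8 to Pcdhb16. SUZ12 lay at 5 and 6 of them.

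The 4 beta members with PCGF2 were Pcdhb3, Pcdhb19, Pcdhb21 and Pcdhb22. At Pcdhb3 the PCGF2 peak was 1914 bp wide, inside a RING1B peak of 2559 bp and a SUZ12 peak of 2663 bp. At Pcdhb19 the widths were 2277 bp (PCGF2), 3051 bp (RING1B) and 3830 bp (SUZ12). Pcdhb21 and Pcdhb22, the last beta members, shared a peak in each list, of 6361 bp (PCGF2), 7614 bp (RING1B) and 9572 bp (SUZ12), and these were the widest peaks of the beta cluster. Pcdhb17 and Pcdhb18 shared the next widest, a RING1B peak of 7007 bp and a SUZ12 peak of 6421 bp, with the nearest PCGF2 peak 7772 bp from the TSS of Pcdhb18. Width alone therefore did not set the members with PCGF2 apart from those without it.

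Pcdhb1, the first beta member, lies 29842 bp before the next one and had a RING1B peak of 1466 bp and a SUZ12 peak of 2482 bp, both across the TSS, and no PCGF2 peak. Pcdhb2 and Pcdhb5 had RING1B peaks of 2366 and 2352 bp and SUZ12 peaks of 3455 and 5306 bp. Pcdhb7, Pcdhb10 and Pcdhb12 had short RING1B peaks of 1812, 928 and 758 bp that began 1272, 1426 and 1682 bp past the TSS. Pcdhb20 had a RING1B peak of 2577 bp and 2 SUZ12 peaks in its window, of which the one of 1687 bp lay wholly inside it. In contrast, 5 beta members, Pcdhb4, Pcdhb6, Pcdhb8, Pcdhb9 and Pcdhb15, had no peak of any list. The nearest SUZ12 peak lay 3976 bp from the TSS of Pcdhb4 and 12006 bp from that of Pcdhb9, with the others between.

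At 4 beta members, Pcdhb11, Pcdhb13, Pcdhb14 and Pcdhb16, a SUZ12 peak and no RING1B peak lay in the window. Over all genes 77 promoters, or 0.294%, had this combination, and none was an alpha or gamma member. Such promoters are what the locus was chosen on, so the count supports nothing by itself. Counted as peaks, 5 of the 16 beta SUZ12 peaks met no RING1B peak, against 0 of 6 alpha and 0 of 13 gamma peaks, and against 281 of all 7438 SUZ12 peaks, or 3.78%.

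The peak at Pcdhb11, chr18:37422992-37424122, was 1131 bp wide, began 1574 bp past the TSS and lay wholly within the exon, 90.3% of it in coding sequence. The peak at Pcdhb13, chr18:37442340-37445105, was the widest of the 5, at 2766 bp, and the only one of them that crossed a TSS, from 177 bp before it to 2588 bp past it. Its nearest RING1B peak, the one at Pcdhb12, was 4280 bp away. The peak at Pcdhb14, chr18:37447857-37449105, was 1249 bp wide and lay wholly in coding sequence. These 3 thus sat on the coding part of a beta exon, as the beta peaks shared with RING1B did. The median share of coding sequence was 64.3% over the 11 SUZ12 peaks that met RING1B.

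The remaining pair lay elsewhere on the gene. The peak at Pcdhb16, chr18:37480014-37482077, was 2064 bp wide and began 2246 bp past the TSS, so that 81.4% of it fell in the 3′ untranslated region (UTR) and 18.6% in coding sequence. The fifth peak, chr18:37500986-37503032, began in the 3′ UTR of Pcdhb19 and ran past its end towards Pcdhb20. It was 2047 bp wide, with 35.5% in the 3′ UTR, no coding sequence and a gap of 1003 bp to the nearest RING1B peak. CpG observed/expected, the frequency of CpG relative to that given by the C and G content, was 0.161 and 0.188 in these peaks. It was 0.42 to 0.447 in the other 3 peaks without RING1B and 0.355 to 0.498 in the 11 beta SUZ12 peaks with it. Over the whole cluster, SUZ12 peaks covered 36.5% of the 3′ UTR bases of beta exons, RING1B peaks 11.5% and PCGF2 peaks 1.1%. For the coding part the shares were 57.7%, 47.4% and 15.2%.

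The gamma cluster spans 165 kb, and RING1B covered 50.2% of it, SUZ12 48.3% and PCGF2 33.5%. In contrast to the alpha cluster, RING1B was the list with the longest unbroken stretch here. One RING1B peak, chr18:37729202-37769741, was 40540 bp wide and covered the TSSs of the 8 members from Pcdhgb5 to Pcdhga12, and only 13 of the 18643 RING1B peaks were wider. Over the same members lay a SUZ12 peak of 31025 bp, which ranked 23rd by width in its list and ended before Pcdhgb8, and a second SUZ12 peak of 7087 bp over Pcdhgb8 and Pcdhga12. PCGF2 had a peak of 28491 bp over Pcdhgb5, Pcdhga9, Pcdhgb6, Pcdhga10, Pcdhgb7 and Pcdhga11, the 18th widest of 3680, followed by separate peaks of 3192 bp at Pcdhgb8 and 2872 bp at Pcdhga12. At these 8 members RING1B covered at least 4880 bp of the window, SUZ12 at least 4196 bp and PCGF2 at least 2712 bp.

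Towards the 5′ end of the gamma cluster the peaks were shorter and separate. Pcdhga1, the first gamma member, had the narrowest SUZ12 peak of the locus, 605 bp, and a RING1B peak of 1230 bp. Pcdhga2 and Pcdhga3 had RING1B peaks of 1048 and 1445 bp and SUZ12 peaks of 1976 and 1366 bp. No PCGF2 peak lay at these 3 members or at Pcdhga6, which had a RING1B peak of 1790 bp and a SUZ12 peak of 3086 bp. Most of the other variable gamma members in this stretch, all with PCGF2, shared a RING1B peak with a neighbour. Pcdhgb1 and Pcdhga4 were under one of 6597 bp, Pcdhgb2 and Pcdhga5 under one of 7205 bp, and Pcdhgb4 and Pcdhga8 under one of 8925 bp. At each of these 3 pairs, PCGF2 had a peak at each member, with widths of 851 to 3613 bp. Pcdhga7 stood alone with peaks of 2263 bp (RING1B), 3476 bp (SUZ12) and 1406 bp (PCGF2).

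The gamma members fall into the subfamilies A, B and C by sequence, and A and B members alternate along most of the cluster. All 7 B members had peaks of all 3 lists, as did 8 of 12 A members and 2 of 3 C members. The C-type member Pcdhgc3, 40830 bp past Pcdhga12, had peaks of 5099 bp (RING1B), 4072 bp (SUZ12) and 3379 bp (PCGF2). Pcdhgc4 had peaks of 3217, 2731 and 2335 bp in the same order. Pcdhgc5, the last member, had no peak over its TSS in any list. Its window reached the ends of the SUZ12 and RING1B peaks of Pcdhgc4, the former 2192 bp before the TSS, and a RING1B peak of 1897 bp that began 2026 bp past it. Of the 3 constant exons of the gamma cluster, the first, of 59 bp, lay wholly under a RING1B peak and the last had 1210 of its 1968 bp under one. Neither SUZ12 nor PCGF2 had a peak over any of them.

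**Figure D3:**
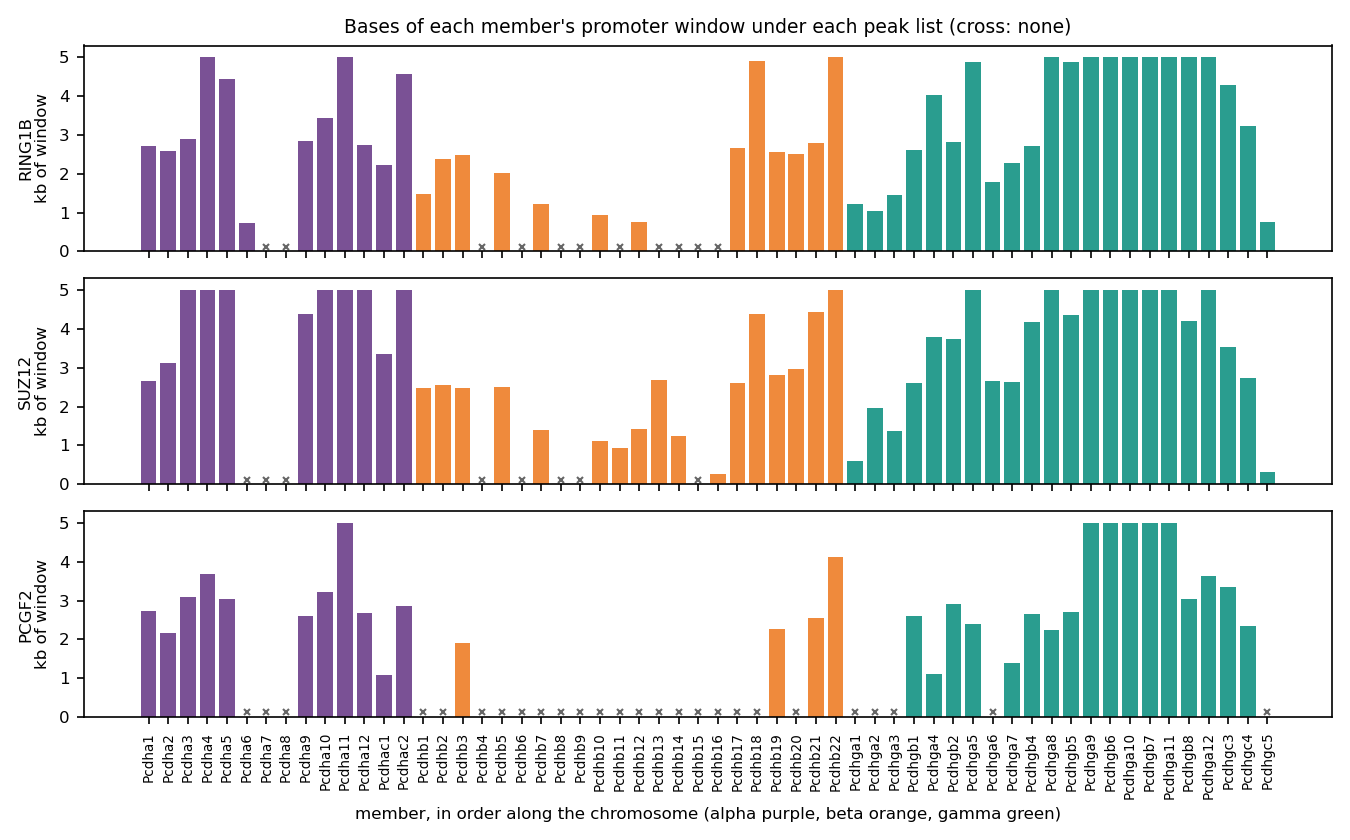
Bases of the 5001 bp promoter window (y axis, kb) under RING1B, SUZ12 and PCGF2 peaks for each of the 58 members in order along the chromosome (x axis); a cross marks a member with no peak. Coverage reaches the whole window from Pcdhga9 to Pcdhga11 in all 3 lists and is 0 in all of them at Pcdha7, Pcdha8, Pcdhb4, Pcdhb6, Pcdhb8, Pcdhb9 and Pcdhb15.

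Some members depend on the limit of 2500 bp. The SUZ12 peaks of Pcdhb16 (2246 bp from the TSS) and Pcdhgc5 (2192 bp) and the RING1B peak of Pcdhgc5 (2026 bp) lay just inside it. Just outside lay the PCGF2 peak nearest to Pcdhgc5 (2761 bp) and the SUZ12 peaks nearest to Pcdha6 (3072 bp) and Pcdha8 (3531 bp). For RING1B the nearest member outside was Pcdhb4, at 4090 bp.

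In the alpha cluster the TSS itself lay inside the peak at each member with one, for all 3 lists. In the beta cluster this held for 7 of 13 members with RING1B, 8 of 17 with SUZ12 and 2 of 4 with PCGF2. At the remaining beta members the nearest peak began past the TSS, on the exon, by a median of 884 bp for RING1B and 1090 bp for SUZ12. These distances ranged from 8 to 1682 bp for RING1B and from 6 to 2246 bp for SUZ12. Some of these peaks thus missed the annotated start by only a few bases. Over all genes with a peak in the window, the TSS lay inside it at 89% (RING1B), 74.9% (SUZ12) and 88.6% (PCGF2). Beta peaks also extended less upstream. Among beta members with SUZ12, the median coverage was 44 bp in the 2500 bp before the TSS and 1882 bp in the 2500 bp after it. The same medians over all genes with SUZ12 were 1225 and 1839 bp. Alpha members had a median of 2500 bp of SUZ12 before the TSS but only 400 bp of RING1B and 544 bp of PCGF2, and their wide SUZ12 peaks ran on between neighbouring exons. Gamma members had 1486 bp of SUZ12 and 2077 bp of RING1B before the TSS.

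**Figure D4:**
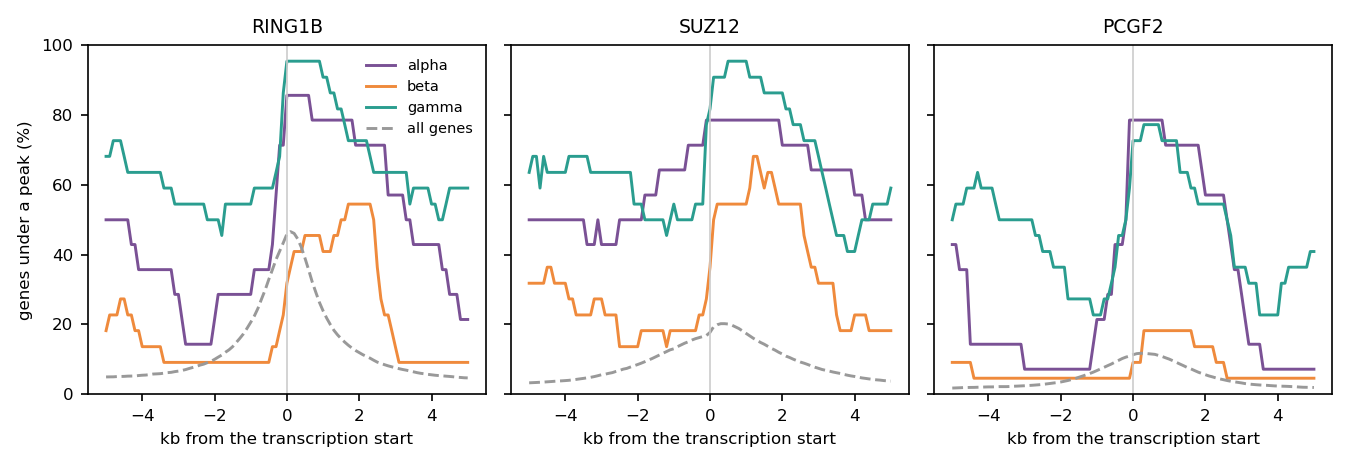
Share of genes (y axis, %) under a peak at each distance from the TSS (x axis, kb, members read in the direction of transcription) for the alpha, beta and gamma clusters and all genes, 1 panel for each list. The beta lines for RING1B and SUZ12 are highest past the TSS, at 54.5% and 68.2%, whereas the line for all genes peaks within 400 bp of it.

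The variable exons make up 15.7% of the alpha span, 28.9% of the beta span and 34.6% of the gamma span. They held 52.7%, 87.1% and 57.4% of the RING1B bases in these spans. For SUZ12 the shares were 40.4%, 78.6% and 62.9%, and for PCGF2 67.4%, 80.8% and 67.5%. The beta peaks thus lay mostly on the exons, and the alpha and gamma peaks extended further between them. Beta exons also hold the 3′ UTR, so the exons are not alike. On the coding part alone, the alpha, beta and gamma shares were 50.9%, 76.8% and 49.8% for RING1B. They were 39.3%, 61.2% and 55.3% for SUZ12 and 65.3%, 75.9% and 57.7% for PCGF2. The pseudogene Pcdhgb8 has no coding part. From the side of the exons, SUZ12 covered 77.3% of the alpha, 51.6% of the beta and 87.6% of the gamma exon bases. No SUZ12 or PCGF2 peak in the 3 spans lay away from a variable exon, and 2 RING1B peaks did, 1 just past the peak of 40540 bp in the gamma cluster and 1 at its first constant exon.

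Outside the members, Gm37013 has a TSS 41 bp before that of Pcdha4 and lay under the same peaks. Gm38666 starts near Pcdha6 and had only the RING1B peak of 741 bp. Gm38667, which starts near Pcdha7, had none. The 140.4 kb between the beta and gamma clusters hold Slc25a2, a mitochondrial carrier gene, and Taf7, a gene for a subunit of the general transcription factor TFIID. Each had 1 narrow RING1B peak, of 402 and 895 bp, and neither had SUZ12 or PCGF2. Counting the edge of the RING1B peak of Pcdhga1, that interval met 4 RING1B peaks and 0 peaks of the other lists. The SUZ12 of the beta and gamma clusters therefore did not run on between them.

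CpG content, which is known to go with Polycomb binding in ESCs, differed between the clusters. The median CpG observed/expected of the promoter window was 0.567 for the alpha, 0.366 for the beta and 0.472 for the gamma members, beside 0.322 over all genes and 0.448 over genes with SUZ12. In the 1 kb centred on the TSS it was 0.706, 0.39 and 0.621, beside 0.501 over all genes. The beta median was thus below that of all genes around the TSS itself. Among gamma members, the median for the window was 0.521 at the 17 with PCGF2 and 0.326 at the 5 without it, and the ranges of 0.345 to 0.667 and 0.288 to 0.431 overlapped. In the variable exons the B members stood at a median of 0.666 and the A members at 0.468.

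CpG content did not order the members within the alpha cluster. Pcdha6, Pcdha7 and Pcdha8, which lacked SUZ12 and PCGF2, had window values of 0.545, 0.602 and 0.608, inside the range of 0.389 to 0.633 of the 11 members with all 3 factors. Their 1 kb values of 0.759, 0.711 and 0.801 were also among the higher ones of the cluster. Among beta members the medians of 0.37 with SUZ12 and 0.355 without any peak were close, and their ranges overlapped. The beta members with PCGF2 had 0.425 (Pcdhb3), 0.388 (Pcdhb19), 0.368 (Pcdhb21) and 0.437 (Pcdhb22). Beta members without PCGF2 ranged from 0.253 (Pcdhb9) to 0.455 (Pcdhb17).

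**Figure D5:**
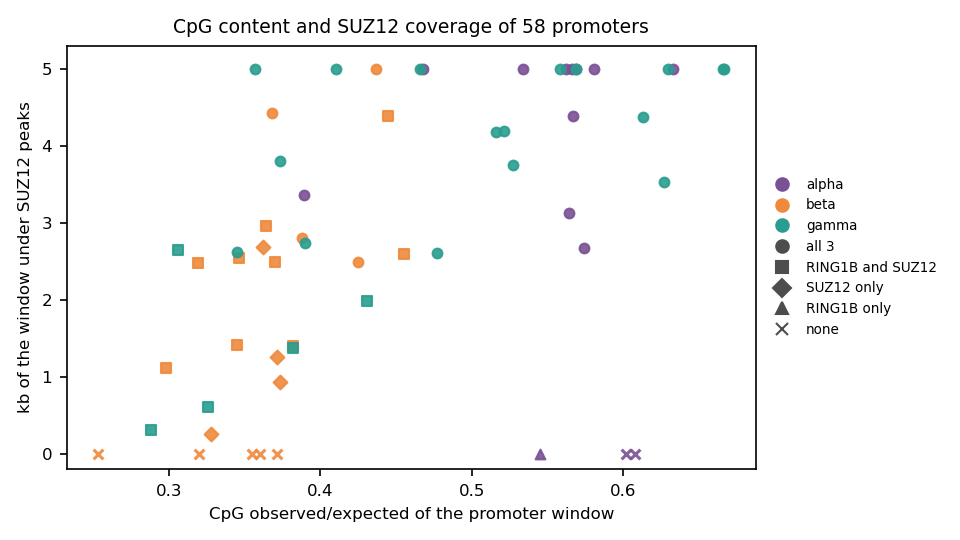
CpG observed/expected of the 5001 bp promoter window (x axis) against the kb of that window under SUZ12 peaks (y axis) for the 58 members, coloured by cluster, with the symbol giving which lists have a peak. The beta members lie at 0.253 to 0.455 on the x axis, and the purple triangle and crosses at 0 kb are Pcdha6, Pcdha7 and Pcdha8.

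The variable exons resemble each other, and reads that fit several places were dropped by the authors, so sequence shared between members can leave gaps in peaks. The share of 50 base stretches of an exon that occur once in the genome had a median of 95.4% over the members, with 85.7% in the alpha, 95.4% in the beta and 99.2% in the gamma cluster. The first exons of Hox genes had a median of 100%. The lowest values belonged to Pcdha6, at 73.5%, and Pcdha7, at 76.4%, where peaks were missing, and Pcdha8 had 81.7%. With stretches of 40 bases, the read length in the study's methods, Pcdha6 (69.97%), Pcdha7 (69.99%) and Pcdha8 (75.4%) had the lowest values of the 58 members. The next lowest, Pcdhgb2 (79.1%) and Pcdha11 (79.4%), had their exons wholly under all 3 lists. At 40 bases the alpha members without SUZ12 and PCGF2 thus had the least unique exons. With 50 bases the order differed, since Pcdha11, at 80.8%, lay below Pcdha8. Pcdha6 had a RING1B peak despite the lowest value. The reads of the study were paired, which single stretches do not take into account. At 50 bases, the 4 beta members with SUZ12 and no RING1B had 88.3% (Pcdhb11), 98.1% (Pcdhb13), 96.2% (Pcdhb14) and 98% (Pcdhb16). The part of read mapping in the gaps at Pcdha6, Pcdha7 and Pcdha8 was not tested. Repeats marked in the reference made up a median of 12.7% of the members' windows, beside 19.98% over all genes.

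Protocadherin promoters are known for a short conserved element with CGCT at its core. The letters CGCT, on either strand (AGCG on the other), were sought from 250 bp before to 50 bp after the TSS. They were present in 57 of the 58 members, all but Pcdhga12, and in 67.2% of all genes. The share was 87.8% over genes with SUZ12, 91.7% over the other protocadherin genes and 92.3% over the Hox genes. These letters alone were thus common outside the clusters too. Within the clusters they were present at members with peaks of all 3 lists and at all 7 members with no peak.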

How the data were processed

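Read pairs were mapped by the authors to a combined mm10 and hg19 genome (Bowtie 2), limited to unique alignments without duplicates, and turned into broad peaks over Input with MACS2, outside a custom blacklist. RING1B and SUZ12 peaks were called on merged replicates and kept where untreated PRC1CPM and PRC1CKO cells both had them, and RING1B peaks were further filtered for loss on tamoxifen in PRC1CKO cells, whose RING1B samples were not analysed here. PCGF2 peaks had to occur in each PRC1CPM replicate. The deposited files hold peak start and end positions in bp. They give no depth, so no interval for counting error could be computed. The lists held 18643 RING1B, 7438 SUZ12 and 3680 PCGF2 peaks, of which 0 overlapped within a list and 0 ran past a chromosome end.

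TSSs, first exons and coding sequence came from curated RefSeq transcripts of GRCm38.p6, the assembly of mm10, with 1 TSS for each member. At 7 alpha and 2 beta members the transcript starts at the first coding base, so the true start may lie upstream. Coordinates count from base 1. The members, sets and alternatives were chosen with earlier results of these data known. Named are the members with SUZ12 alone, with PCGF2 or with no peak, the C-type, first and last members, those under the widest peaks or near the window limit, and other genes starting inside the locus. The remaining members were named to account for all. No test was made, because the lists hold no replicates. The overlap code was tested on simulated data and gave 0 wrong answers in 16000 checks against a base by base search. Python 3.11.15, NumPy 2.4.6, pandas 2.3.3 and pysam were used.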

Additional observations from a re-analysis of the deposited data

How the results depend on the processing

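The 15 counts of members with a peak, or with a combination of peaks, were repeated under 7 alternatives, and under an eighth, the start sites of GENCODE M21, which was added after seeing the data. Of the 120 repeated counts, 113 were within 1.5 times the reported count. This limit is wide and also passes counts of 0 that stayed at 0. Within it, beta members with SUZ12 fell from 17 to 12 with TSS plus or minus 1000 bp. Requiring the TSS itself inside the peak left 7 beta members with RING1B, 8 with SUZ12, 2 with PCGF2, 2 with all 3 lists and 2 with SUZ12 and no RING1B. The last of these were Pcdhb13 and Pcdhb2, whose RING1B peak begins just past the TSS. With TSS plus or minus 1000 bp, 2 beta members had SUZ12 and no RING1B, Pcdhb13 and Pcdhb14, since the peaks at Pcdhb11 and Pcdhb16 begin further from the TSS. With TSS plus or minus 5000 bp, 1 alpha member, Pcdha8, had SUZ12 and no RING1B. The beta count fell to 3 there, since Pcdhb13 then had a RING1B peak in its window. Requiring at least 500 bp of the window under the list also left 3, without Pcdhb16. The 4 beta members with SUZ12 and no RING1B were kept with the first exon in place of the window and with the GENCODE start sites. Peaks of at least 1000 bp only gave 6, adding Pcdhb10 and Pcdhb12, whose RING1B peaks of 928 and 758 bp were left out. No alternative changed the absence of this combination from the gamma cluster. No replicate could be left out, and no paired analysis was possible because each list combines its samples and carries no replicate values.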

Other observations

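Each list can also be read by how often a peak joins several variable exons. In the alpha cluster 2 of 10 RING1B peaks, 2 of 6 SUZ12 peaks and 1 of 10 PCGF2 peaks touched more than 1 variable exon. In the gamma cluster this held for 4 of 14 RING1B, 4 of 13 SUZ12 and 1 of 12 PCGF2 peaks. The most exons under a single peak were 8 for RING1B and 6 for each of SUZ12 and PCGF2, all in the gamma cluster, and 2 in any list in the beta cluster. Spacing differed as well, with a median of 5330 bp from one gamma TSS to the next, 7440 bp in the alpha and 7842 bp in the beta cluster.

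Among members with both RING1B and SUZ12, SUZ12 covered more of the window at 8 alpha, 9 beta and 6 gamma members, and RING1B covered more at 1, 3 and 9. Of the RING1B bases in the gamma span, 88% lay under SUZ12, and 91.5% of the SUZ12 bases under RING1B. In the beta span the shares were 95.2% and 62.4%. PCGF2 bases were under SUZ12 for 99.9% in the alpha, 100% in the beta and 98.5% in the gamma span.

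The 118 kb between the last alpha variable exon and Pcdhb1 met 3 RING1B and 2 SUZ12 peaks and no PCGF2 peak. Both SUZ12 peaks were those of the flanking members, Pcdhac2 and Pcdhb1, and only their edges reached into the interval. The RING1B peaks of these members reached into it in the same way and are among those counted.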
